A study of Homo sapiens with 5 samples.

Results

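The genes described here are 9 genes that drive or mark gastric cancer when altered or highly expressed: the receptor tyrosine kinase genes ERBB2, EGFR, MET and FGFR2, the transcription factor gene MYC, the cyclin genes CCND1 and CCNE1, the angiogenic ligand gene VEGFA and the adhesion receptor gene CD44. They were taken by name, not by a rule on their signal, from 19689 genes with a protein-coding transcript. Earlier results of these data were known when they were chosen. Each was examined over its annotated length and 50 kb to each side, 1524 kb in all, in peak lists from SNU638, an established human gastric cancer cell line. The lists came from CUT&Tag, in which an antibody guides the Tn5 transposase to cut and tag the DNA around its target. The antibodies were anti-BRG1, anti-ACTL6A and anti-NRF2, with 1 library for each, and 2 further libraries used IgG. All came from SNU638 cells, and the labels name no treatment. No antibody was replicated, so every value below describes 1 library and no difference was tested.

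BRG1 (gene SMARCA4) is an ATPase of the SWI/SNF (BAF) chromatin remodelling complex, which moves nucleosomes at promoters and enhancers. ACTL6A (BAF53A) is an actin-related subunit of the same complex. NRF2 is a transcription factor of the oxidative stress response that binds the antioxidant response element (ARE). ERBB2, EGFR, MET and FGFR2 signal through kinase cascades in the cytoplasm, MYC and the cyclins act in the nucleus on growth and the cell cycle, and copy gains of several of these genes are known in gastric tumours.

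BRG1 peaks lay at the transcriptional start of all 9 genes, ACTL6A peaks at 4 of them and NRF2 peaks at 1, MYC. The windows held 89 BRG1, 28 ACTL6A and 8 NRF2 peaks, and 0 peaks of either IgG list. The IgG lists were short, and over all genes the 95th percentile of their peak density was also 0. The absence of IgG peaks is therefore not particular to these genes. The best-ranked peaks were not at the promoters alone: the highest BRG1 and ACTL6A peaks of the whole set lay deep in intron 1 of EGFR, and at CCNE1 the highest peak of all 3 antibodies lay 33 kb past the gene's start and beyond its end. FGFR2 and CD44 had few peaks of any list.

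The caller's list sizes set the scale for these counts. The lists held 23917 peaks for ACTL6A, 48793 for BRG1, 9045 for NRF2, 11 for IgG 1 and 1746 for IgG 2. Fragment numbers at each summit, recovered from the caller's fold and p-value, had list medians of 6 for ACTL6A, 10.0 for BRG1 and 17.0 for NRF2. Fold, q-value and fragment number depend on depth and background, so these medians describe each list and no peak's value is compared between lists. Rank in the own list, by -log10 q, is given beside them, where a low percent is a high rank. Of 6 epithelial marker genes, 5 (EPCAM, CDH1, KRT8, KRT18 and KRT19) had a BRG1 peak at a start and CLDN4 had none. Of 3 blood markers 0 had one, and 2 of 4 muscle and fibroblast markers, COL1A1 and COL1A2, did. Over all genes the share was 63.5%, so these few genes do not settle the cell type.

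Reference sequences are shown for 4 of the sites that carry the highest-ranked peaks or peaks of all 3 antibodies, and not for every such site. Each is 200 bp of the plus strand of GRCh38, and capitals mark matches on either strand to 4 of the 6 motifs searched: AP-1 (TGANTCA), the ARE core (TGACNNNGC), SP/KLF (GGGCGG) and the E-box (CACGTG). The other 2 motifs, that of TEAD spelled as GGAATG and that of GATA factors spelled as AGATAA, had no match in these windows.
EGFR intron 1, chr7:55074056-55074255: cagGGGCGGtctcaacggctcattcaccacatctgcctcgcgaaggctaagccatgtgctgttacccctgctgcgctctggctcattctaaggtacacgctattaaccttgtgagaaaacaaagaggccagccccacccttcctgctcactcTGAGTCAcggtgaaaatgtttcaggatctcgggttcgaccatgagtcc
MET upstream, chr7:116631005-116631204: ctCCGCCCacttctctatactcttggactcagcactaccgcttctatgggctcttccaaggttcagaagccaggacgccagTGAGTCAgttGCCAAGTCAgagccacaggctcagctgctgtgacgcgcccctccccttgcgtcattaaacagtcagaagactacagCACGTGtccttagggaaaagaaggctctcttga
MET promoter, chr7:116671996-116672195: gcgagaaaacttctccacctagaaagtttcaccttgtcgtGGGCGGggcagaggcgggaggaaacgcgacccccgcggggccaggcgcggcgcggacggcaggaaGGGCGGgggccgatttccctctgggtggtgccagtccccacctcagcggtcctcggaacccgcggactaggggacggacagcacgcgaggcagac
CCNE1 downstream, chr19:29844882-29845081: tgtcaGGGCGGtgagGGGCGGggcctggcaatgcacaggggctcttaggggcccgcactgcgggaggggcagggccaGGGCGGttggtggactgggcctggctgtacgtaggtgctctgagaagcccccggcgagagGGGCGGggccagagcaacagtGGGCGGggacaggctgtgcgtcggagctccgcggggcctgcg
The EGFR window held 1 AP-1 and 1 SP/KLF match. The window upstream of MET held an AP-1 match and an ARE core match, which reads TGACNNNGC on the minus strand, with 3 bases between them, together with 1 SP/KLF and 1 E-box match. The MET promoter, taken up to the base before the start, held 2 SP/KLF matches. Of 35116 RefSeq promoters, 40.1% held at least 1 such match in the same 200 bases. The CCNE1 window held 5 SP/KLF matches and no AP-1 or ARE core match, at a GC content of 73.5%. A window not printed, around the ACTL6A summit at 114 kb in EGFR intron 1 (chr7:55132867-55133066), held 0 matches to the 6 motifs. A match is a description of the letters and not a measured site.

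**Figure D1:**
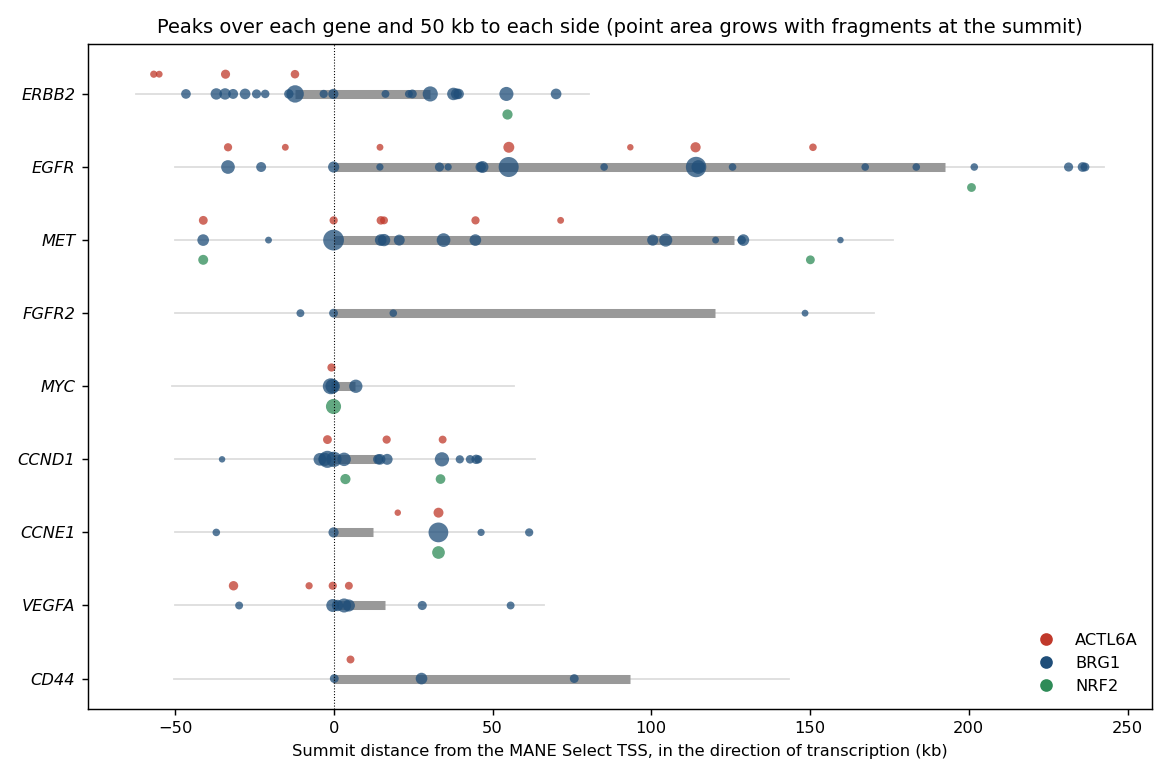
Peaks of the ACTL6A, BRG1 and NRF2 lists over each gene (grey bar) and 50 kb to each side (thin line), by summit distance in kb from the MANE Select start in the direction of transcription; point area grows with the fragments at the summit. BRG1 peaks lie at the start of all 9 genes, FGFR2 has BRG1 peaks only, and the largest points at EGFR and CCNE1 lie away from the start.

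A peak counted as being at a start if any of its bases was 1 kb or less from where a protein-coding transcript of the gene begins. By this count BRG1 marked 9 of 9 genes, against 63.5% of all genes. ACTL6A marked 4 of 9 (MET, MYC, VEGFA and, at an upstream start alone, ERBB2), against 38.5% of all genes, and NRF2 marked 1 of 9, against 28.1%. The share for ACTL6A was close to that of all genes. With only peaks of -log10 q of at least 5, ACTL6A was left at 1 gene start, the one ERBB2 shares with PGAP3.

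The promoter peaks differed widely in rank. The MET promoter had the highest-ranked BRG1 peak at any start of these genes, 437th in its list (highest 0.896%), with 78 fragments where 3.81 were expected and a fold of 16.44. The start that ERBB2 shares with PGAP3 followed at rank 1239, with 53 fragments against 2.52, and the MYC promoter at rank 4335, with 44 against 4.24. The lowest-ranked were the CD44 start, with 10 fragments against 1.89 at rank 36208 (highest 74.2%), and a start of another ERBB2 transcript at exon 13, with 7 against 0.966 at rank 37125 (highest 76.1%).

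**Figure D2:**
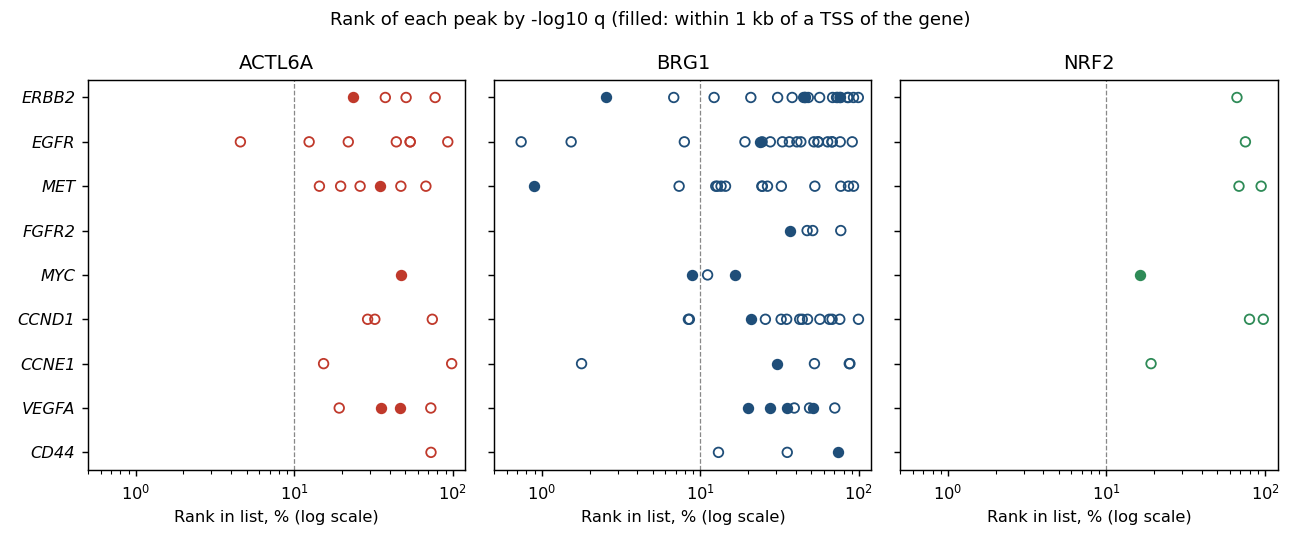
Rank of each peak in its own list by -log10 q, in percent on a log axis, with 1 row per gene; filled points lie within 1 kb of a start of the gene and the dashed line marks the highest 10%. Of the BRG1 peaks 11 lie in the highest 10%, against 1 ACTL6A and 0 NRF2 peaks.

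Within the highest 10% of their lists were 11 of the 89 BRG1 peaks (12.4%), 1 of the 28 ACTL6A peaks (3.57%) and 0 of the 8 NRF2 peaks. Only 2 BRG1 peaks reached the highest 1%, in EGFR intron 1 and at the MET promoter. A fold at or above the 95th percentile of its own list was seen for 4 BRG1 peaks (4.49%, against 5.00% of the list), for 1 ACTL6A peak (3.57%, against 5.02%) and for 0 NRF2 peaks (against 5.01%). These shares were no higher than those of the lists. The 4 BRG1 peaks were the ERBB2 and PGAP3 start, EGFR intron 1 at 55.1 kb, the MET promoter and MET intron 2 at 34.6 kb, and the ACTL6A peak was the one in EGFR intron 1.

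Among the receptors, ERBB2 (HER2, the target of trastuzumab, ENSG00000141736) spans 39687914 to 39730426 on the plus strand of chromosome 17. The MANE Select transcript starts at 39700064, and other transcripts start 12.2 kb upstream, next to the start of PGAP3, which lies on the minus strand. The window held 20 BRG1 peaks, or 14.0 per 100 kb, which was the only density here at or above the 95th percentile of all genes (13.2 per 100 kb, reached by 5.00% of genes by definition). At least this density was found at 3.92% of genes. With 100 kb to each side the density of ERBB2 fell below the 95th percentile for that window.

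The ERBB2 window is rich in genes, and 8 of its 20 BRG1 peaks lay at starts of other coding genes and at none of ERBB2, beside the peak at the start shared with PGAP3. These 8 were at starts of STARD3, TCAP, PNMT, PGAP3, MIEN1 and GRB7, while IKZF3, a lymphoid transcription factor gene, had no peak at its start. GRB7, an adaptor protein gene that is often gained together with ERBB2, had 3 BRG1 peaks at its start. The peaks formed 2 clusters, taken as at least 3 peaks of 1 list with at most 10 kb between neighbours: 11 peaks over 47.1 kb, ending at the MANE start, and 7 peaks over 23.2 kb, from exon 13 to GRB7.

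The highest BRG1 peak of ERBB2 was not at its MANE start. It lay over the shared start with PGAP3 (chr17:39687765-39688121), where ACTL6A also had its highest peak of the window, with 9 fragments against 0.546, and the summits lay 49 bp apart. At the MANE start the BRG1 peak had 15 fragments against 2.27, at rank 22254, and ACTL6A had no peak. The second-highest BRG1 peak, at the start of MIEN1 just past the end of ERBB2, had 39 fragments against 2.36. The 1 NRF2 peak lay 54.6 kb from the MANE start, downstream of the gene, with 15 fragments against 2.95, and overlapped a BRG1 peak of 33 fragments.

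EGFR (ENSG00000146648, chromosome 7, plus strand, 55019017 to 55211628) encodes the receptor for EGF and related ligands. It had 19 BRG1, 7 ACTL6A and 1 NRF2 peaks, of which 12 of the BRG1 and 5 of the ACTL6A peaks lay in introns of the MANE transcript. The peak at 55.1 kb in intron 1 (chr7:55073989-55074294) was the highest of the whole set for both proteins. For BRG1 it held 72 fragments where 2.53 were expected, with a fold of 20.70 and rank 361 (highest 0.74%). For ACTL6A it held 18 fragments against 0.674, with a fold of 11.35 and rank 1092 (highest 4.57%). The printed EGFR window is centred on the ACTL6A summit, 49 bp from that of BRG1.

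A second strong site lay further along intron 1, at 114 kb (chr7:55132695-55133430). BRG1 had 75 fragments against 4.96 there, at rank 745, and ACTL6A had 15 against 1.08, at rank 2954. A further site, 33.3 kb upstream of the gene, had 31 BRG1 fragments against 1.39 and 8 ACTL6A fragments against 0.352. These sites all ranked above the EGFR promoter, whose BRG1 peak had 19 fragments against 1.48 (rank 11629) and no ACTL6A peak. The NRF2 peak, 201 kb from the start and past the gene's end, had 10 fragments against 1.48, with no BRG1 or ACTL6A peak over it.

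MET (ENSG00000105976, chromosome 7, plus strand, 116672196 to 116798377) encodes the receptor for hepatocyte growth factor. The window held 14 BRG1, 6 ACTL6A and 2 NRF2 peaks. Its promoter peak (chr7:116671809-116672557 for BRG1) was described above; ACTL6A had 8 fragments against 0.636 there, its summit 26 bp from that of BRG1. A shared site 41.1 kb upstream held peaks of all 3 antibodies, with 21 fragments against 0.728 for BRG1, 10 against 0.389 for ACTL6A and 14 against 2.66 for NRF2. This is the printed window with adjoining AP-1 and ARE core matches, and the NRF2 peak ranked 6197 in its list (highest 68.5%).

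Of the 6 ACTL6A peaks of MET, 5 overlapped a BRG1 peak, 3 of them in introns 1 and 2. The intron 2 site at 44.6 kb had 21 BRG1 fragments against 0.819 and 8 ACTL6A fragments against 0.299. The intron 2 BRG1 peak at 34.6 kb, with 31 fragments against 1.26 and a fold of 14.16, had no ACTL6A peak. CAPZA2, the next coding gene, begins inside the MET window and had a BRG1 and an NRF2 peak only at a later start of its own, outside the window.

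FGFR2 (ENSG00000066468, chromosome 10, minus strand, 121478332 to 121598458) encodes a receptor for fibroblast growth factors. It was the only gene of the 9 with no ACTL6A peak, and with CD44 and VEGFA it had no NRF2 peak. Its 4 BRG1 peaks ranged from 4 to 10 fragments, and the highest was at the promoter, with 10 against 0.560 (rank 17901). The density, 1.82 per 100 kb, was below the median of 3.33 over all genes.

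MYC (ENSG00000136997, chromosome 8, plus strand, 127735434 to 127742951) was the only gene with a peak of all 3 antibodies at its start. BRG1 had 2 peaks there, with 44 fragments against 4.24 (rank 4335) and 35 against 4.32 (rank 8041). ACTL6A had 8 fragments against 0.868, at rank 11289 (highest 47.2%). NRF2 had its highest-ranked peak of the 9 genes there, with 39 fragments against 7.52, at rank 1468 (highest 16.2%), and that peak was 1083 bp wide and spanned the ACTL6A peak, 1 BRG1 peak and part of the other.

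Only 1 further peak lay in the MYC window, a BRG1 peak of 29 fragments against 1.70, just past the 3′ end of the gene. The density of BRG1 peaks, 2.79 per 100 kb, was below the median of all genes. The fragments expected at the MYC summits were high, as set out below.

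CCND1 (cyclin D1, the partner of CDK4 and CDK6, ENSG00000110092, chromosome 11, plus strand, 69641156 to 69654474) had the second-highest BRG1 density, 12.4 per 100 kb, a density reached by 6.37% of genes. Its 14 BRG1 peaks fell mostly into 3 clusters, of 5 peaks over 8.23 kb around the promoter, 3 peaks over 3.09 kb past the 3′ end, and 5 peaks over 12.0 kb from the start of LTO1 onward. The highest was not the promoter peak (40 fragments against 7.30) but lay 2.0 kb upstream, with 51 fragments against 5.86 at rank 4101, and ACTL6A had 10 fragments against 0.905 at the same place.

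At LTO1, a neighbouring gene of ribosome assembly, all 3 lists had a peak at the start. BRG1 had 34 fragments against 2.00, ACTL6A 7 against 0.404 and NRF2 13 against 2.65. The other NRF2 peak of the window lay in intron 3 of CCND1, with 15 fragments against 4.54 and rank 8822 (highest 97.5%), near the bottom of its list. FGF19, a growth factor gene beside LTO1, had no peak at its start in any list.

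CCNE1 (cyclin E1, the partner of CDK2, ENSG00000105173, chromosome 19, plus strand, 29811991 to 29824312) had few peaks but one of the strongest sites. That site lay 33 kb from the start, past the end of the gene, and was at no start of a coding gene. BRG1 had 70 fragments against 4.48 (chr19:29844267-29845362, rank 868, highest 1.78%), ACTL6A had 14 against 1.11 (rank 3649) and NRF2 had 26 against 3.56 (rank 1726, highest 19.1%). The promoter had a BRG1 peak alone, with 15 fragments against 1.18 at rank 14761. The other 3 BRG1 peaks of the window had 5, 6 and 8 fragments.

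VEGFA (vascular endothelial growth factor A, ENSG00000112715, chromosome 6, plus strand, 43770184 to 43786487) had 7 BRG1 and 4 ACTL6A peaks and no NRF2 peak. At the promoter BRG1 had 27 fragments against 4.14 and ACTL6A 8 against 0.651, with summits 6 bp apart. A group of 4 BRG1 peaks, of 20 to 33 fragments, covered the start and the first introns over 5.50 kb, each within 1 kb of a start of some VEGFA transcript. The highest of them, at 3.27 kb in intron 1, had 33 fragments against 4.63, at rank 9752 (highest 20.0%). The ACTL6A cluster of VEGFA, 3 peaks over 12.7 kb, was the only ACTL6A cluster of the 9 genes.

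The highest ACTL6A peak of VEGFA lay 31.6 kb upstream at a start of the lncRNA ENSG00000236961, with 12 fragments against 0.943, and had no BRG1 peak over it. It was the highest-ranked of the 10 ACTL6A peaks that stood without BRG1. The density of ACTL6A peaks at VEGFA, 3.44 per 100 kb, was the highest of the 9 and was reached by 16.6% of all genes, so it did not reach the 95th percentile, nor did ACTL6A at any of the 9 genes (0 of 9, against 5.00% of genes by definition). The same held for NRF2 (0 of 9, against 5.00%), whose highest density was 1.76 per 100 kb at CCND1.

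CD44 (ENSG00000026508, chromosome 11, plus strand, 35138882 to 35232402), the hyaluronan receptor used as a marker of gastric cancer stem-like cells, had 3 BRG1 peaks and 1 ACTL6A peak. The BRG1 peak at the start was the lowest-ranked of the 3. The highest lay at 27.6 kb in intron 1, with 21 fragments against 0.770 (rank 6360, highest 13.0%). The ACTL6A peak, at 5.1 kb in the same intron, had 7 fragments against 0.928 and overlapped neither BRG1 nor NRF2.

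**Figure D3:**
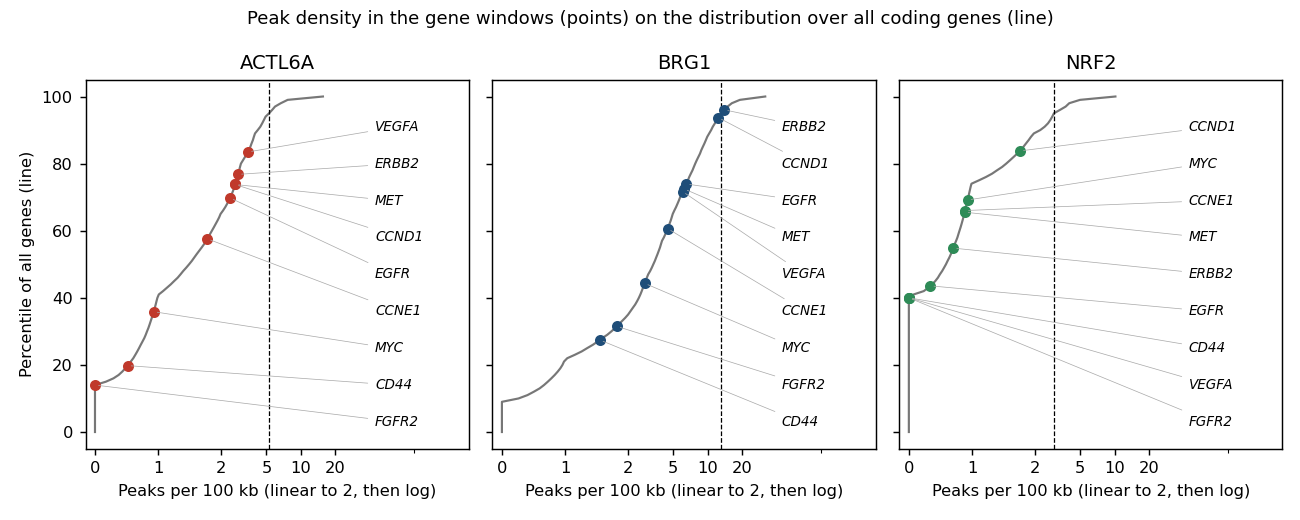
Peaks per 100 kb in the window of each gene (points) placed on the cumulative distribution over all coding genes (line), for ACTL6A, BRG1 and NRF2; the x axis is linear to 2 and logarithmic above, and the dashed line is the 95th percentile. ERBB2 in the BRG1 list, at 14.0 per 100 kb, is the only point at or past it.

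Over the 9 genes the median density was 6.02 BRG1 peaks per 100 kb against 3.33 over all genes, 2.39 against 1.49 for ACTL6A and 0.702 against 0.588 for NRF2. The windows held 11 BRG1 clusters at 6 of the 9 genes (ERBB2, EGFR, MET, MYC, CCND1 and VEGFA), against 39.4% of all genes with a BRG1 cluster. ACTL6A had a cluster at 1 of the 9, against 7.60%, and NRF2 at 0 of the 9, against 1.44%. With 10 kb to each side of the genes in place of 50 kb, 58 BRG1 and 3 NRF2 peaks were left.

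The level of fragments that the caller expected differed between the genes and stands beside these counts. Relative to the median over the BRG1 list, the median expected number at BRG1 summits was 4.97 times as high at MYC, 4.68 at VEGFA, 3.68 at CCND1 and 2.87 at ERBB2, then 1.27 at MET, 1.17 at EGFR, 0.926 at CCNE1, 0.902 at CD44 and 0.377 at FGFR2. The genes with the highest ratios included both with the densest BRG1 peaks. The caller's control was not given, so the expected number may come from the BRG1 library itself. In that case it is not independent of the peaks. Over 1 Mb to each side the ratio was 1.24 at MYC, 1.25 at VEGFA, 1.13 at CCND1 and 2.45 at ERBB2, so at ERBB2 alone of these 4 it was still above 2. BRG1 peaks away from a coding start were set against the median of all such peaks of the list, not that of the whole list. There the order of these 4 genes changed, with ratios of 5.16 at CCND1, 3.91 at ERBB2, 2.79 at MYC and 1.31 at VEGFA. Given the other reference median, the size of these ratios cannot be compared with those above. The value at MYC rested on 1 peak and that at VEGFA on 3. The BRG1 medians in the gene windows rested on 3 peaks at MYC and at CD44 and on 4 at FGFR2. For ACTL6A summits in the windows the ratio was 2.34 at CD44, 2.28 at CCND1, 2.19 at MYC, 1.70 at CCNE1 and 1.59 at VEGFA. It was 1.26 at MET, 1.07 at ERBB2 and 0.887 at EGFR, and CD44 and MYC had 1 ACTL6A peak each. For NRF2 it was 2.70 at MYC and 1.06 at ERBB2, from 1 peak each, and 1.29 at CCND1. The part of gene copy number, gene density or local openness in the expected level was not tested.

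The 3 lists met at a minority of places. Merged where they overlapped, the peaks formed 100 sites, of which 68 were BRG1 alone, 14 ACTL6A with BRG1, 10 ACTL6A alone, 2 BRG1 with NRF2, 2 NRF2 alone and 4 all 3. The 4 sites of all 3 lists were the MYC promoter, the LTO1 start near CCND1, and the sites 41.1 kb upstream of MET and 33 kb from the start of CCNE1. At the LTO1 start the ACTL6A and NRF2 peaks did not overlap each other. Their summits lay 661 bp apart, and the BRG1 peak over both joined them into 1 site. ACTL6A and NRF2 shared no site that lacked BRG1.

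Of the 28 ACTL6A peaks, 18 (64.3%, Wilson 95% interval 45.8% to 79.3%) overlapped a BRG1 peak, against 49.8% of the whole ACTL6A list. Of the 89 BRG1 peaks, 18 (20.2%, 13.2% to 29.7%) overlapped an ACTL6A peak, against 24.1% of the BRG1 list. NRF2 peaks overlapped BRG1 in 6 of 8 cases (75%, 40.9% to 92.9%), against 66.2%, and ACTL6A in 3 of 8 (37.5%, 13.7% to 69.4%), against 49.8%. The share of the whole list fell within the interval in each of these 4 comparisons. These intervals hold counting error alone, as if each peak were independent.

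Where ACTL6A and BRG1 shared a site their summits were 6 to 227 bp apart with a median of 38.0 bp over 18 sites. NRF2 and BRG1 summits were 6 to 434 bp apart with a median of 134 bp over 6 sites. A shared site needs peaks that overlap, so peak width limits these distances. The median width was 206 bp for ACTL6A, 232 bp for BRG1 and 474 bp for NRF2. Of the 14 sites of ACTL6A with BRG1 and without NRF2, EGFR and MET held 4 each, and ERBB2, CCND1 and VEGFA held 2 each.

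**Figure D4:**
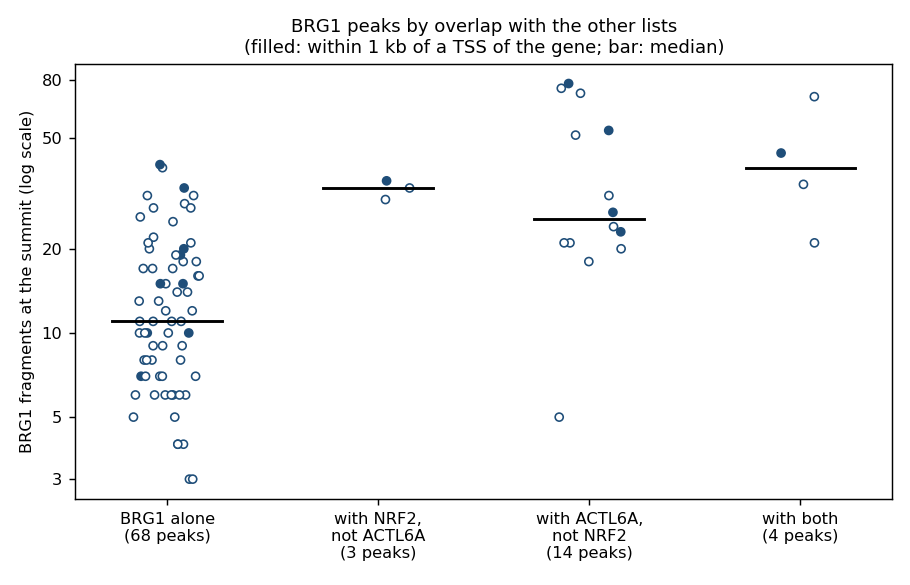
Fragments at the summit of each BRG1 peak (log axis) by overlap with ACTL6A and NRF2 peaks; filled points lie within 1 kb of a start of the gene and bars are medians. The 68 BRG1 peaks alone have a median of 11 fragments and the 4 with both other lists 39.0.

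In these windows, BRG1 peaks that met another list held more fragments. Those with ACTL6A had a median of 29.0 fragments (5 to 78, 18 peaks) and those without it 12.0 (3 to 40, 71 peaks). Those with NRF2 had a median of 34.0 (21 to 70, 7 peaks) and those without it 14.0 (3 to 78, 82 peaks). The ranges overlapped in both cases. Whether the whole lists show the same was not tested. ACTL6A peaks over BRG1 likewise had a median of 8 fragments (4 to 18), and the 10 that stood alone had 3 to 12.

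Most peaks lay away from coding starts. At a start of any coding gene lay 24 of the 89 BRG1 peaks, against 15165 of 48793 in the whole list. For ACTL6A it was 7 of 28, against 7246 of 23917, and for NRF2 2 of 8, against 4740 of 9045. Of the 89 BRG1 peaks, 15 lay at a start of the gene itself, 9 at a start of another coding gene, 3 at a lncRNA start only, 24 inside the gene away from its starts in an intron or outside the MANE transcript, 1 in an exon and 37 in the flanks. For ACTL6A 5 of 28 lay at an own start, 10 inside the gene and 10 in the flanks. Of the 8 NRF2 peaks, 1 lay at an own start and 5 in the flanks away from any start.

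The AP-1 motif was found in 21 of the 89 BRG1 windows of 200 bp (23.6%, 16% to 33.4%), against 13.2% over the BRG1 list, and in 6 of 28 ACTL6A windows (21.4%, 10.2% to 39.5%), against 8.04%. Away from coding starts, where 65 of the BRG1 and 21 of the ACTL6A peaks lay, the shares were 30.8% against 16.9% for BRG1 and 23.8% against 9.63% for ACTL6A. AP-1 is the dimer of FOS and JUN proteins, and its pattern can overlap that of the ARE. The matches were unevenly spread: 9 of the 21 BRG1 windows lay at MET and 7 at EGFR, and VEGFA, CCND1, CCNE1 and FGFR2 had none.

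The ARE core was found in 2 of the 8 NRF2 windows (25.0%, 7.15% to 59.1%), at MET and CCNE1, against 9.66% of the NRF2 list. It was found in 10 of 89 BRG1 windows (11.2%), against 11.5%, and in 2 of 28 ACTL6A windows (7.14%), against 9.88%. The CCNE1 match lies outside the printed window, which is centred on the ACTL6A summit. For TEAD, GATA, SP/KLF and the E-box, the shares in BRG1 windows were 12.4%, 2.25%, 29.2% and 6.74%, against 10.7%, 3.56%, 27.4% and 5.20% over the list. The list's share lay within the Wilson interval for each of these 4 motifs.

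Partner genes of the same pathways, from lists written from general knowledge, differed in how many starts had a peak, to be read against the shares of all genes with one, 63.5% for BRG1, 38.5% for ACTL6A and 28.1% for NRF2. Of 21 receptors and ligands, 12 had a BRG1 peak at a start, 7 an ACTL6A peak and 3 an NRF2 peak. ERBB3, the partner of ERBB2, and FGFR4 had all 3, while HGF, the ligand of MET, the VEGF receptor genes KDR and FLT1, and FGFR1 had none. Of the EGFR ligands, AREG, EREG and HBEGF had ACTL6A and BRG1 peaks, TGFA and BTC BRG1 alone and EGF none.

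Downstream of the receptors, 14 of 15 signalling genes had a BRG1 peak at a start, 10 an ACTL6A peak and 9 an NRF2 peak. AKT1 had BRG1 and NRF2 peaks and no ACTL6A peak, and NRAS had an ACTL6A peak alone. Among cell cycle genes and MYC partners, 12 of 12 had BRG1, 11 ACTL6A and 5 NRF2, with MYCN, at BRG1 alone, the exception for ACTL6A. CDK4 and MAX, which pair with cyclin D1 and MYC, had all 3. Of 5 partners of CD44, EZR had BRG1 and NRF2, RDX had BRG1, and SPP1, MSN and HAS2 had no peak at a start.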

How the data were processed

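CUT&Tag libraries of SNU638 cells were prepared by the authors with anti-ACTL6A, anti-BRG1, anti-NRF2 or IgG. Per the labels, reads were mapped to hg38 (GRCh38), with fastp 0.23.0, FastQC, BWA, MACS2, deepTools and HOMER 4.11 named in the submitters' processing notes. MACS2 was run by the authors with a q-value limit of 0.05, and its control was not given in the sources used here. In the deposited lists the score is the -log10 q-value times 10 for nearly every peak. The deposited fold is a ratio, (fragments + 1) over (expected fragments + 1), at the summit. MACS2 also gave the deposited -log10 p-value, -log10 q-value and summit offset.

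The number of fragments at a summit and the number expected were solved from fold and Poisson p-value together, to within 0.001 of the deposited -log10 p. A solution in whole fragments was found for 99.6% to 100% of a list's peaks. Depth in reads was not used. Peaks were placed on GENCODE release 44 and overlapped when they shared at least 1 bp. A start is the first base of a protein-coding transcript, a cluster is at least 3 peaks with gaps of at most 10 kb, and high density or fold is at or above the 95th percentile. Motifs were searched on both strands in 200 bp around summits, and promoter sequences for comparison were RefSeq's. The 9 genes were each named with the peak at the start and the highest-ranked peak of each list, and the other genes are those with a start in a window or in the pathway and marker lists. The tally of signalling genes leaves out 2 genes of that list, which are not reported here. The members and lists were chosen with earlier results of these data known. With 1 library per antibody no test was made, and no peak of a window was left out. Alternatives were a higher -log10 q, the highest-ranked peaks, other windows, start distances and cluster gaps, reciprocal overlap, a stricter fold limit and IgG-shared peaks left out. The routines were tested on simulated data. The tools were matplotlib 3.10.9, pandas 2.3.3, SciPy 1.17.1, NumPy 2.4.6 and Python 3.11.15.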

Additional observations from a re-analysis of the deposited data

How the results depend on the processing

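Of 52 alternative values for 19 counts and shares, 32 stayed within the limit for a move (a factor of 1.5 for a count) and 20 did not. Keeping only peaks with a -log10 q of at least 5 left 9 ACTL6A, 54 BRG1 and 2 NRF2 peaks in the windows, 1 gene with an ACTL6A peak at a start, 6 BRG1 clusters and 0 ACTL6A clusters, and moved the overlap of ACTL6A with BRG1 to 88.9% and of NRF2 with BRG1 to 100%. Keeping the highest 5000 peaks of each list left 6 ACTL6A, 11 BRG1 and 2 NRF2 peaks. With 10 kb to each side the windows held 58 BRG1 and 3 NRF2 peaks, and with 100 kb the number of genes with a high BRG1 density went from 1 to 0. A gap of 5 kb left 0 ACTL6A clusters. An overlap of 50% of both peaks gave 35.7% for ACTL6A with BRG1, 37.5% for NRF2 with BRG1 and 0% for NRF2 with ACTL6A. A fold limit at the highest 1% left 1 BRG1 and 0 ACTL6A peaks. Leaving out peaks shared with IgG moved 0 of 9 values, since none of the windows held such a peak. No paired analysis was possible because there was only 1 library per antibody. ACTL6A peaks in the windows had 3 to 18 fragments at the summit, and whether depth limited the number called was not tested.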
